A study of Mus musculus with 25 samples.

Results

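The comparison set the crosslink sites of a short SRSF7 product, labelled RRM, beside those of full-length GFP-tagged SRSF7 from the same kind of cells. It rests on 4 of the 25 libraries of the series: RRM_OE replicates 3 and 4, and GFP_OE replicates 3 and 4, chosen by their titles. All 4 came from P19 cells, a mouse embryonal carcinoma line, of the genotype SRSF7-GFP OE (overexpression of GFP-tagged SRSF7), with UV irradiation and an anti-SRSF7 antibody. The labels name no promoter, clone or age of culture for the overexpressing cells. Both products were therefore measured in cells that carry the GFP-tagged protein, and RRM_OE differs from GFP_OE by the product named in the title. Other groups served as a frame: endo_OE (2 libraries, endogenous SRSF7 from overexpressing cells), endo_WT (1 library, endogenous SRSF7 from cells without overexpression), and 1 library each of GFP_OE without UV and without antibody.

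SRSF7 is an SR protein, one of the splicing factors that bind pre-mRNA and mRNA. The full protein has an RNA recognition motif (RRM), a CCHC zinc knuckle that takes part in choosing RNA, and a tail rich in arginine and serine that binds other proteins. SRSF7 limits its own level through its own transcript, whose alternative isoforms can encode a shorter protein with the RRM alone. In iCLIP, cells are irradiated so that bound protein becomes joined to its RNA, and the protein-RNA complexes are run on a gel, moved to a membrane and cut out by size. Each cDNA that ends beside a crosslinked nucleotide is then counted as 1 crosslink event. The product is thus defined by the antibody and the cut of the membrane, and any other protein of that size that the antibody pulled down would be counted with it.

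The RRM_OE libraries were the shallower ones. RRM_OE 3 held 17763 events at 16244 nucleotides and RRM_OE 4 held 42982 events at 39145. GFP_OE 3 held 126841 events and GFP_OE 4 held 471705, so that each RRM_OE library had 14% (number 3) or 9.11% (number 4) of the events of its GFP_OE partner. In events scaled to a library total of 1000000 (CPM), 1 event was worth 56.3 in RRM_OE 3 and 23.3 in RRM_OE 4, and 3 events, the floor used here, were worth 169 and 69.8. The control libraries held 1789 events without UV and 3080 without antibody, where 1 event was worth 559 and 325 CPM. Per the file headers, same-numbered libraries shared a sequencing run: number 3 with both controls, and number 4 with endo_OE and endo_WT. The header of the library titled GFP_OE without UV names the truncated product, so which product it controls for is not settled. Over 442 windows of 5000 nt, log2 CPM values correlated at r = 0.53 between RRM_OE 3 and GFP_OE 3 and at r = 0.75 between RRM_OE 4 and GFP_OE 4. The 2 RRM_OE libraries correlated at r = 0.47 and the 2 GFP_OE libraries at r = 0.48. For these 4 libraries each same-run pair lay above both same-product pairs, and values are given below within each number. This did not hold for all libraries: RRM_OE 4 and endo_OE 4, of the same run, correlated at r = 0.47, no higher than the same-product pairs. endo_OE 4 and endo_OE 5, which share both run and product, correlated at r = 0.71. These correlations are across windows, which share library depth and are not independent replicates. The titles do not say whether replicates came from separate cultures, so p-values measure the spread between these libraries. The test used below takes part of that spread from the other windows or bins.

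At the scale of 5000 nt, no window passed the test. Of the 442 windows with enough events, 0 (0%) reached an adjusted p of 0.05 in either direction by limma-voom with Benjamini-Hochberg adjustment, with 21 at an unadjusted p under 0.05. limma-trend also called 0 windows, with 24 at an unadjusted p under 0.05. Both RRM_OE libraries lay above both GFP_OE libraries in 15.4% of the windows and below them in 16.3%. Within both numbers RRM_OE was higher in 23.8% and lower in 29.9%. The strongest windows were largely shared: 6 of the 8 windows with the most RRM_OE events were also among the 8 with the most GFP_OE events. No annotation of mm9, the genome build of the files, was used here, so the gene names given to these windows come from general knowledge of that build and not from the files.

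A difference appeared at the scale of single binding sites, in the ribosomal RNA precursor. Ribosomal RNA forms the core of the ribosome, is the most abundant RNA of a cell, and is a common background in crosslinking libraries. A stretch of 20 nt on the plus strand, chr17:39983821-39983840 (mm9), held 142 events in RRM_OE 3 (7994 CPM) and 258 in RRM_OE 4 (6003 CPM). The same stretch held 37 events in GFP_OE 3 (292 CPM) and 92 in GFP_OE 4 (195 CPM). Both RRM_OE libraries lay above both GFP_OE libraries, with no overlap. The ratio of RRM_OE to GFP_OE was 27.4 for number 3 (exact conditional 95% interval 19 to 40.5) and 30.8 for number 4 (24.2 to 39.5). These intervals cover counting error only. The deposited files hold no reads, so PCR duplicates and reads that fit several copies of this repeated gene were not tested at the site.

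The stretch was the strongest of all 20 nt bins in both RRM_OE libraries. It ranked 61 of 104750 bins with an event in GFP_OE 3 and 115 of 379741 in GFP_OE 4. Thinned to the depth of its RRM_OE partner, GFP_OE 3 would hold 5.18 events there against 142, and GFP_OE 4 would hold 8.38 against 258. The scan with 20 nt bins was added after the data had been seen. In it, 2 of 288 bins (0.694%) were called, both higher in RRM_OE and both on this ribosomal RNA stretch. The log2 fold change of the first was 4.71 ± 0.59 (SE, adjusted p = 0.0074 by limma-voom). With the sequencing run as a block it was 4.72 ± 0.39 (SE, adjusted p = 4.4e-28 by limma-voom), and with the replicate block on the 4 libraries alone it was 4.71 ± 0.49 (SE, adjusted p = 1.2e-15 by limma-voom). In these block fits the spread was pooled over all tested bins, which are not replicate libraries. Their p-values are therefore smaller than so few libraries alone could give. The median log2 fold change over the 288 bins was -0.18, or -0.05 when libraries were scaled by their totals.

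The second called bin, chr17:39985101-39985120 on the plus strand, lies in the same precursor locus. It held 19 events in RRM_OE 3 (1070 CPM) and 76 in RRM_OE 4 (1768 CPM), against 10 in GFP_OE 3 (78.8 CPM) and 44 in GFP_OE 4 (93.3 CPM). The groups did not overlap, and the log2 fold change was 3.83 ± 0.61 (SE, adjusted p = 0.021 by limma-voom). This second call was lost with other bins, all by limma-voom: the 2 overlapping bins of 10 nt had adjusted p-values of 0.056 and 0.074, the bin of 100 nt 0.995, and the bins shifted by 10 nt 0.13 and 0.97. The first site was called with each of these bins. Refits without 1 library leave a single library in that group, which is then assumed to vary like the other groups. Without RRM_OE 3 the count of called bins fell from 2 to 0, with fold changes of 4.52 and 4.17 on the log2 scale, each at an adjusted p of 0.15 by limma-voom. Without RRM_OE 4 the count was also 0, with 4.93 (adjusted p = 0.14 by limma-voom) and 3.47 (adjusted p = 0.47 by limma-voom). A fit on the 4 libraries alone, without a block, called 0 bins, with an adjusted p of 0.079 for both. Without either GFP_OE library, 2 bins were called.

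**Figure D1:**
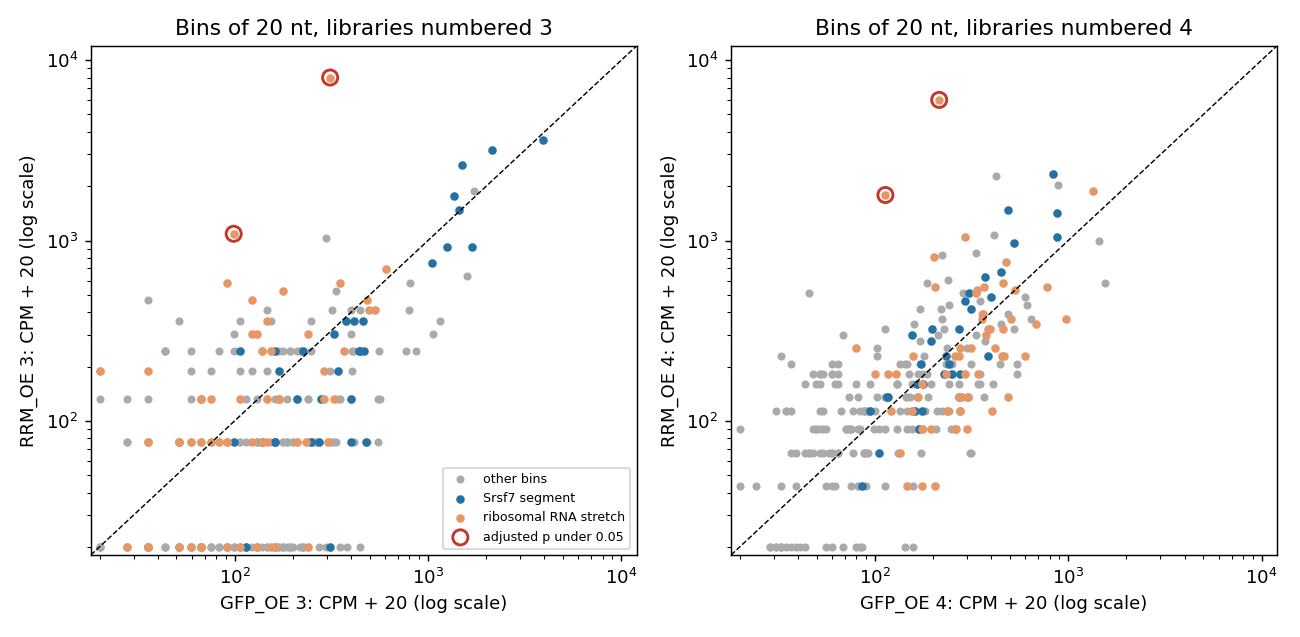
Crosslink events of the 288 tested bins of 20 nt, as CPM plus 20 on log axes, with GFP_OE on the horizontal and RRM_OE on the vertical axis, for the libraries numbered 3 (left) and 4 (right); the dashed line marks equal values. The 2 circled bins, called at an adjusted p under 0.05, lie far above the line in both panels, while the bins of the Srsf7 segment (blue) and of the ribosomal RNA stretch (orange) otherwise scatter on both sides of it.

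The site was narrow in RRM_OE, and GFP_OE had events at the same nucleotides. In RRM_OE 3 the strongest nucleotide was 39983830 with 39 events, and in RRM_OE 4 it was 39983829 with 57 events. These were also the strongest single nucleotides of the whole RRM_OE libraries. In GFP_OE 3 the strongest nucleotide of the stretch was 39983829 with 11 events, and in GFP_OE 4 it was 39983830 with 12. The 6 nucleotides with the most RRM_OE events fall within 8 nt, from 39983826 to 39983833. They held 121 of the 142 events in RRM_OE 3 and 209 of 258 in RRM_OE 4. In GFP_OE 3 they held 31 of 37 events and in GFP_OE 4 58 of 92. These nucleotides were picked by their RRM_OE events, which by construction favours a larger share in RRM_OE. The strongest nucleotide held 27.5% and 22.1% of the stretch in RRM_OE and 29.7% in GFP_OE 3. In GFP_OE 4, where 16 of the 20 nucleotides had an event, it held 13.0%. GFP_OE 4 was thus more spread out than the others, and the difference in shape was not tested. The largest single nucleotides of the GFP_OE libraries lay elsewhere: 80604034 on chromosome 17 minus in GFP_OE 3 (88 events, in the Srsf7 window described below) and 39984552 on the plus strand in GFP_OE 4 (293 events, in the ribosomal RNA stretch).

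Other libraries had less at the site than RRM_OE. Endogenous SRSF7 from overexpressing cells had 33 events in endo_OE 4 (985 CPM) and 72 in endo_OE 5 (861 CPM), between the products, and endo_WT had 42 (199 CPM). The library without UV had 0 events, which allows up to 1677 CPM by the floor of 3 events. The library without antibody had 5 events (1623 CPM). Background of the bead step at this site is therefore measured only loosely, and the value without antibody lies above GFP_OE and below RRM_OE. In libraries made with an anti-GFP antibody the site was low for the full-length protein (WT 36.1, 242 and 147 CPM), for the zinc-knuckle variant labelled mutZn (67.9 and 73.5 CPM) and for the variant labelled D27aa (162 and 129 CPM). The 2 RRM_OE libraries carried 1 and the same barcode in the library primer, which no GFP_OE library had. Both mutZn libraries also carried it, and their 67.9 and 73.5 CPM at the site were below the 7994 and 6003 CPM of RRM_OE. Those libraries were made with another antibody, and the part of the barcode in the difference was not tested.

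**Figure D2:**
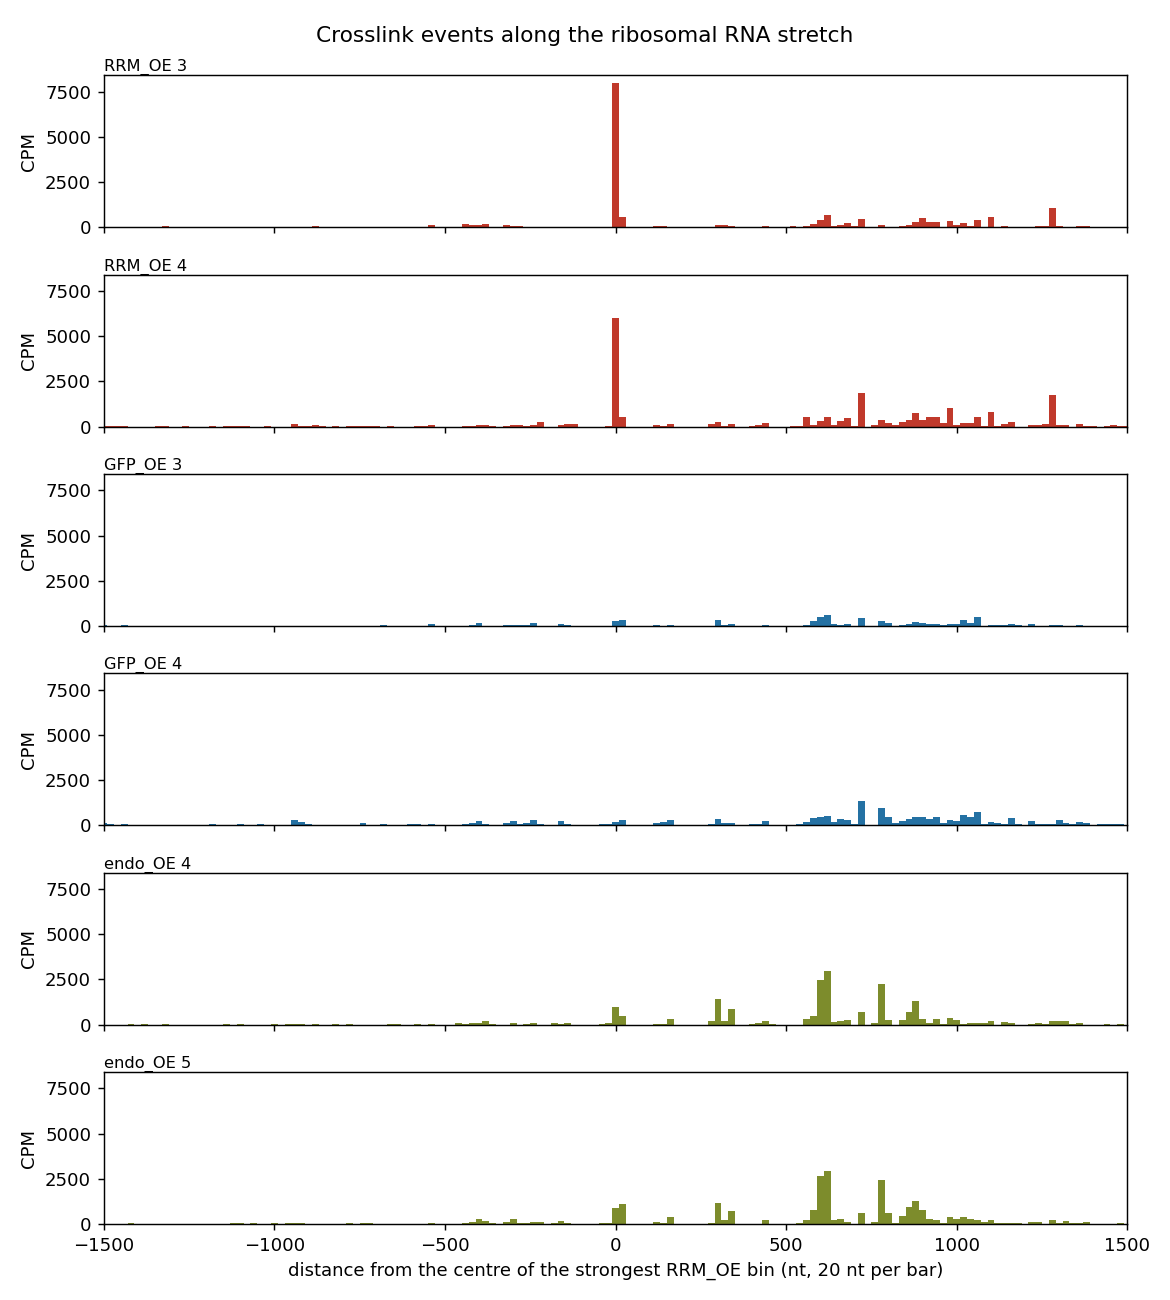
Crosslink events (CPM, bars of 20 nt) within 1500 nt of the centre of the strongest RRM_OE bin, on the plus strand of the ribosomal RNA stretch, for the RRM_OE (red), GFP_OE (blue) and endo_OE (green) libraries on one shared scale. A single bar at distance 0 reaches 7994 and 6003 CPM in RRM_OE, while endo_OE has its highest bars downstream of it and GFP_OE has no such peak.

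Over the whole ribosomal RNA locus the products overlapped. From 39975001 to 39990000 on the plus strand, the stretch held 1.96% of the events of RRM_OE 3 and 2.97% of those of RRM_OE 4, against 1.15% of GFP_OE 3 and 3.04% of GFP_OE 4. The site made up 40.7% of the events of the stretch in RRM_OE 3 (exact binomial 95% interval 35.5 to 46.0) and 20.2% in RRM_OE 4 (18.0 to 22.5). In GFP_OE 3 it made up 2.53% (1.79 to 3.47) and in GFP_OE 4 0.641% (0.517 to 0.785). Without the 3 bins of the stretch that were called in any of the main or run-block fits, the stretch held 1.0% and 2.11% in RRM_OE, against 1.11% and 3.00% in GFP_OE. Those bins were picked as higher in RRM_OE in these same libraries. Their removal therefore lowers RRM_OE more by construction, and the direction of what remains is no separate result. Of the 60 tested bins of the stretch, RRM_OE was higher in both numbers in 14 and lower in both in 29. Of the 228 tested bins elsewhere, RRM_OE was higher in both in 46 and lower in both in 87, and over all 288 bins the shares were 20.8% and 40.3%. The median log2 fold change was -0.40 in the stretch. The library without antibody had 7.01% of its events in this stretch, more than any of the 4, and the part of such background in the levels outside the site was not tested.

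Within the stretch, 6 bins had both RRM_OE libraries above both GFP_OE libraries and 14 had both below, against 9.72% and 22.6% of all tested bins. The higher bins beside the called ones included chr17:39984921-39984940, with 563 and 791 CPM in RRM_OE against 71.0 and 182 in GFP_OE. The library without antibody had 3 events there (974 CPM), above RRM_OE. This bin passed with the run as a block (log2 fold change 2.23 ± 0.59 SE, adjusted p = 0.015 by limma-voom) and not without it (adjusted p = 0.31 by limma-voom). Among the lower ones, chr17:39984401-39984420 had 169 and 93.1 CPM in RRM_OE against 268 and 384 in GFP_OE, with no call (adjusted p = 0.98 by limma-voom). The bin chr17:39984421-39984440, high in endo_OE at 2476 and 2642 CPM, had 394 and 302 CPM in RRM_OE and 512 and 441 in GFP_OE. The library without antibody had 20 events (6494 CPM) in that bin, above endo_OE, and 12 events (3896 CPM) in the bin before it.

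With the sequencing run as a block, 8 of 288 bins (2.78%) were called, all higher in RRM_OE. They included both bins called without the block. The replicate block on the 4 libraries called 9 of 166 bins (5.42%), among them all 8. Beyond the 3 bins of the ribosomal RNA stretch, the 5 others lie in windows left unnamed here. All 5 rest on few events, and the block fits pool the spread over bins. The bin chr3:127248221-127248240 (plus) had the most, with 18 and 24 events in RRM_OE (1013 and 558 CPM) and 35 and 78 in GFP_OE (276 and 165 CPM). Its ratio was 3.67 for number 3 (1.96 to 6.66) and 3.38 for number 4 (2.04 to 5.39). endo_WT had 638 CPM and endo_OE 4 had 656 CPM there, within the range of RRM_OE. The bin chr2:26767741-26767760 (plus) had 8 and 12 events in RRM_OE (450 and 279 CPM) against 2 and 23 in GFP_OE (15.8 and 48.8 CPM), and its log2 fold change was 2.87 ± 0.83 (SE, adjusted p = 0.028 by limma-voom). The bin chr11:108873221-108873240 (minus) had 3 and 21 events in RRM_OE against 0 and 12 in GFP_OE. The bins chrX:50940721-50940740 (minus) and chr6:102647061-102647080 (plus) had 4 to 8 events in each RRM_OE library. At the first of these endo_OE 5 had 251 CPM, above the 225 and 186 CPM of RRM_OE, and the controls had 1 event each. Both RRM_OE libraries lay above both GFP_OE libraries in all 8 bins, which was so for 9.72% of all tested bins. The filter is set in CPM, which few events reach in the shallow RRM_OE libraries. The chr6 bin entered the test only through the 2 RRM_OE libraries, and the chr11 bin would not have entered without them. For these 2 bins the filter itself favoured a higher value in RRM_OE.

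**Figure D3:**
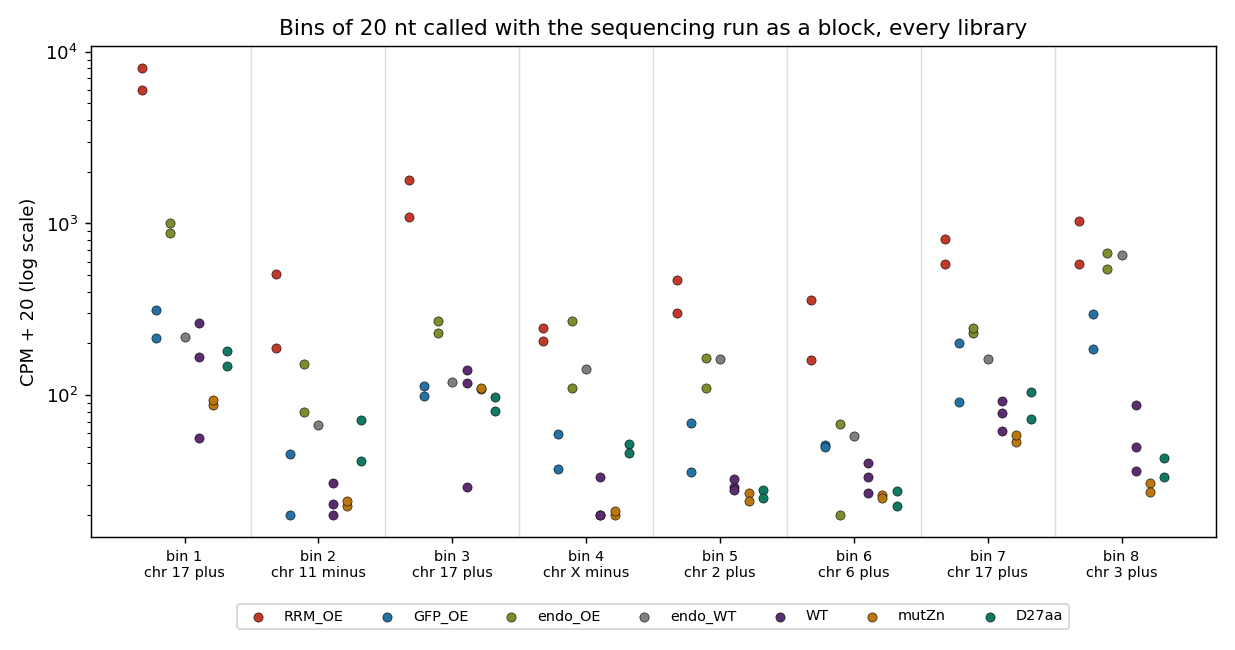
CPM plus 20 (log axis) in every library for the 8 bins of 20 nt called with the sequencing run as a block, ordered by log2 fold change; each point is 1 library, coloured by group, with WT, mutZn and D27aa from the anti-GFP libraries. RRM_OE lies above GFP_OE in each bin, by the widest gap at bins 1 and 3 of the ribosomal RNA stretch, and at bins 4 and 8 some endogenous libraries reach the level of RRM_OE.

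Among the 5000 nt windows named by size of change, 1 came close to a call. The window chr9:80245001-80250000 (plus) had 7 and 16 events in RRM_OE (394 and 372 CPM) against 8 and 5 in GFP_OE (63.1 and 10.6 CPM). Its log2 fold change was 4.63 ± 0.63 (SE, adjusted p = 0.11 by limma-voom). It was called with the run as a block (3.93 ± 0.64 SE, adjusted p = 0.0019 by limma-voom; 1 of 442 windows, 0.226%), and not with the replicate block on the 4 libraries (adjusted p = 0.42 by limma-voom). endo_OE had 209 and 83.7 CPM in this window, and the 7 anti-GFP libraries had 0 to 2.57 CPM. The next 2 by adjusted p, chr16:4590001-4595000 (minus) and chrX:50940001-50945000 (minus), had 225 CPM each in RRM_OE 3 from 4 events. In RRM_OE 4 they had 163 and 186 CPM, and in GFP_OE 17 to 39.4 CPM, with an adjusted p of 0.27 for each by limma-voom. The chr16 window entered the test only through both RRM_OE libraries, so there the filter itself favoured a higher value in RRM_OE. Of the 2 remaining windows of the larger differences upward, chr1:133470001-133475000 (plus) and chr13:83905001-83910000 (minus), each had 1 event in one of the RRM_OE libraries.

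The windows with the largest differences downward were empty or nearly so in RRM_OE. In chr1:155310001-155315000 (minus) and chr3:15955001-15960000 (plus) both RRM_OE libraries had 0 events, and GFP_OE had 158 and 93.3 CPM in the first and 158 and 65.7 in the second. In number 3 the GFP_OE levels are below the 169 CPM that 3 events mean in RRM_OE, so a difference was not detectable at that depth. In chr11:68935001-68940000 (minus) RRM_OE had 0 and 3 events (0 and 69.8 CPM) against 268 and 257 CPM in GFP_OE. In chr5:60505001-60510000 (plus) it had 0 and 4 events against 441 and 125 CPM. In chr18:75160001-75165000 (plus) it had 0 and 1 event against 150 and 167 CPM. None of these was called (adjusted p = 0.94 or 0.97 by limma-voom). The chr11 window entered the test only through both GFP_OE libraries, and the chr1 window would not have entered without GFP_OE 3. For these windows the filter itself favoured a lower value in RRM_OE.

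Abundant noncoding RNAs of the nucleus gave events with both products. The window chr9:78020001-78025000 (minus), which holds the gene of 7SK, a small RNA that keeps the elongation factor P-TEFb inactive, had 450 and 2466 CPM in RRM_OE and 2113 and 4479 in GFP_OE. RRM_OE was lower within each number, with ratios of 0.213 (0.0911 to 0.426) for number 3 and 0.551 (0.449 to 0.669) for number 4, but RRM_OE 4 lay above GFP_OE 3. The log2 fold change was -1.81 ± 0.86 (SE) and did not pass (adjusted p = 0.97 by limma-voom, 0.10 with the run as a block). The library without UV had 4472 CPM and that without antibody 1623 CPM in this window, levels like those of the UV libraries. With each position counted once the direction turned, to 0.68 ± 0.52 (SE) on the log2 scale, with an adjusted p of 0.80 by limma-voom. Counting once takes more events from the deeper GFP_OE libraries at strong places. Malat1, a long RNA of nuclear speckles where SR proteins gather, gave the chr19:5795001-5800000 window (minus) 4222 and 6980 CPM in RRM_OE and 5598 and 8387 in GFP_OE. The neighbouring window, chr19:5800001-5805000, had 1520 and 1629 CPM in RRM_OE and 1151 and 1297 in GFP_OE. Neither Malat1 window was called (adjusted p = 0.99 for both by limma-voom), and the 2 pointed in opposite directions. Of the other strong windows, chr11:68885001-68890000 (plus), left unnamed here, had 788 and 4141 CPM in RRM_OE, 1593 and 2656 in GFP_OE, and 8295 and 8035 in endo_OE. Both products were below endo_OE there and overlapped with each other. The window chr4:42090001-42095000 (minus) had 732 and 791 CPM in RRM_OE against 2491 and 403 in GFP_OE, so the 2 GFP_OE libraries lay on both sides of RRM_OE. The window chr18:73690001-73695000 (minus) had 2139 and 2536 CPM in RRM_OE, above the 1782 and 502 of GFP_OE, with ratios of 1.20 (0.828 to 1.70) and 5.05 (3.99 to 6.36). It was not called (adjusted p = 0.97 by limma-voom, 0.27 with the run as a block), and endo_OE had 2834 and 2068 CPM and the library without UV 2795 from 5 events. With each position counted once, the log2 fold change in the chromosome 11 window went from -0.50 to 1.11, and in the chromosome 4 window from -0.44 to 0.94.

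Apart from the ribosomal RNA, the overexpressed Srsf7 transcript was the largest single target. Its window held more events than the ribosomal RNA stretch in number 3 and fewer in number 4, for both products. The window chr17:80600001-80605000 (minus), which holds the Srsf7 gene, had 20379 and 14983 CPM in RRM_OE, 22840 and 11586 in GFP_OE, and 16082 and 17109 in endo_OE. In endo_WT, from cells without overexpression, it had 1135 CPM. The ranges of RRM_OE and GFP_OE overlapped, and the log2 fold change was -0.03 ± 0.47 (SE, adjusted p = 0.99 by limma-voom). The wider segment around it that endo_OE held above endo_WT, 80590001 to 80690000, had 2.27% and 1.76% of the events in RRM_OE and 2.53% and 1.42% in GFP_OE. The ratio was 0.895 for number 3 (0.805 to 0.993) and 1.24 for number 4 (1.15 to 1.34), so the direction differed between the numbers (exact permutation test over the 4 libraries, two-sided p = 1). With each nucleotide counted once RRM_OE was higher in both numbers, with ratios of 1.66 (1.42 to 1.92) and 2.01 (1.80 to 2.23). Counting once takes more events from the deeper GFP_OE libraries. Their shares fell to 0.799% and 0.522%, and those of RRM_OE to 1.32% and 1.05%. These ratios therefore carry the difference in depth. With 2 libraries against 2, the permutation test cannot go below 0.333. The library without UV had 2.91% of its events in the segment (2.18 to 3.79, exact binomial 95% interval) and that without antibody 0.909% (0.605 to 1.31). The level without UV was thus not below that of the products.

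Within the Srsf7 window the events of both products lay largely at the same places. The library without UV also had its strongest bin there, at chr17:80604401-80604420 with 7 events. The bin chr17:80604021-80604040 held 17.7% and 15.4% of the window's events in RRM_OE, and 17.2% and 6.99% in GFP_OE. The bin next to it, chr17:80604041-80604060, held 15.5% and 9.78% in RRM_OE, and 9.32% and 4.03% in GFP_OE. Another, chr17:80604321-80604340, held 12.7% and 9.32% in RRM_OE, and 6.49% and 7.37% in GFP_OE. In these last 2 bins both RRM_OE libraries had a larger share of the window than both GFP_OE libraries. Their CPM values overlapped between the groups, and neither was called (adjusted p = 0.98 for both by limma-voom). Of the 32 tested bins in the window, RRM_OE was higher in both numbers in 8, lower in both in 13 and mixed in 11. These counts are near the shares over all 288 tested bins, 20.8% higher in both and 40.3% lower in both. Across the 32 bins, shares correlated at r = 0.94 between the 2 RRM_OE libraries, 0.93 between RRM_OE 3 and GFP_OE 3, 0.87 between RRM_OE 4 and GFP_OE 4, and 0.82 between the 2 GFP_OE libraries. Across numbers, r was 0.95 between RRM_OE 4 and GFP_OE 3, and 0.77 between RRM_OE 3 and GFP_OE 4, the lowest. These are correlations over bins of one transcript, given as a description.

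**Figure D4:**
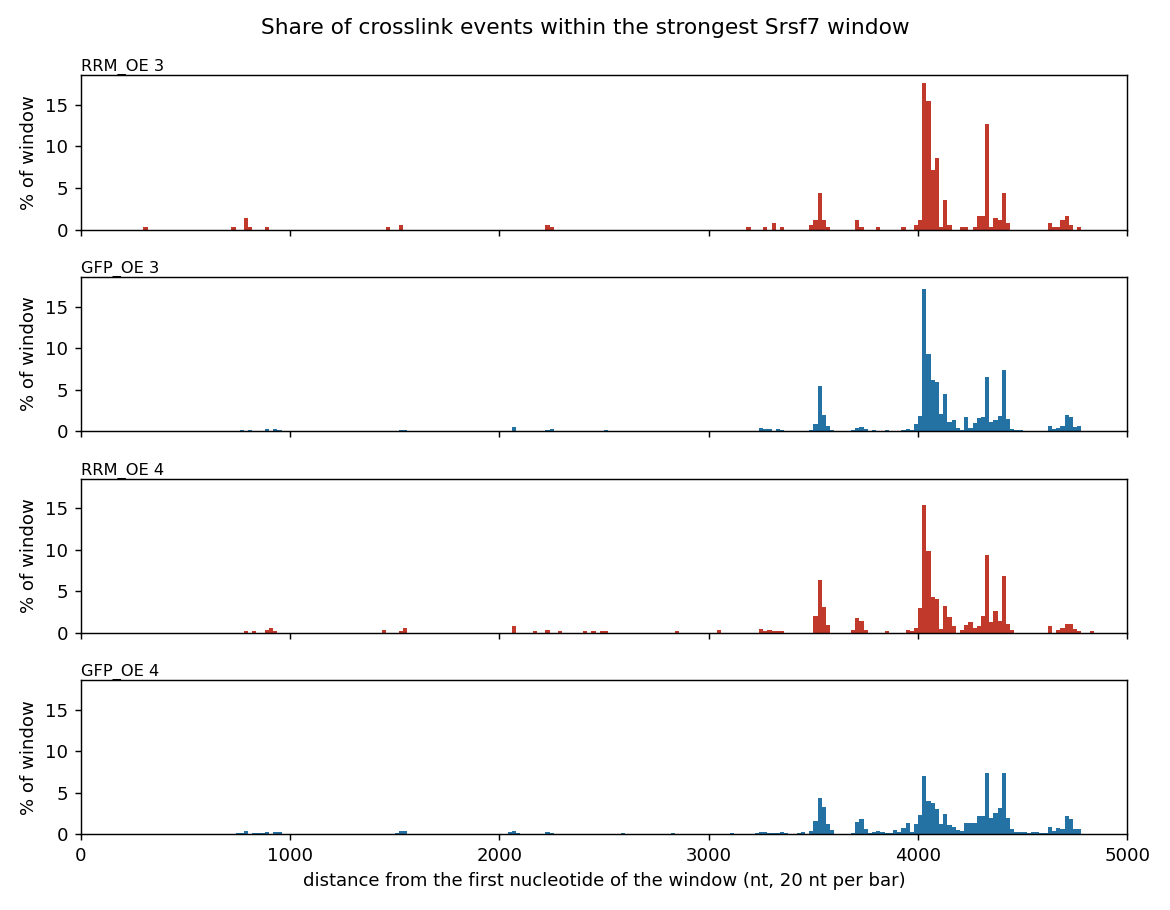
Share of each library's crosslink events in the strongest Srsf7 window (percent, bars of 20 nt) against the distance from the first nucleotide of the window; the gene is on the minus strand, so its transcript runs from right to left. Peaks stand at the same places in all 4 libraries, and GFP_OE 4 has a flatter profile, with 6.99% in the bin that holds 15.4% to 17.7% in the other libraries.

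Mitochondrial RNA, which a nuclear and cytoplasmic RNA-binding protein meets little in the living cell, took 0.175% of the events in RRM_OE 3 (0.119 to 0.248, exact binomial 95% interval) and 0.463% in RRM_OE 4 (0.401 to 0.532). It took 0.380% in GFP_OE 3 (0.347 to 0.415) and 0.723% in GFP_OE 4 (0.699 to 0.748). RRM_OE had the lower share within each number, with ratios of 0.459 (0.309 to 0.661) and 0.640 (0.552 to 0.739). Across numbers the groups overlapped (exact permutation test, two-sided p = 0.667). The library without antibody had 1.33% (0.957 to 1.80) and that without UV 0.727% (0.387 to 1.24). With each nucleotide counted once, the direction differed between the numbers, with ratios of 0.729 and 1.19. Counting once takes more events from the deeper GFP_OE libraries.

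At equal depth the share of crosslinked nucleotides that RRM_OE had in common with GFP_OE was 1.23% to 1.84%, and that between its own replicates 1.70% to 1.77%. With GFP_OE thinned to the depth of its partner, 1.84% of the nucleotides of RRM_OE 3 and 2.40% of those of RRM_OE 4 were also crosslinked in GFP_OE. With all libraries thinned to 17763 events, RRM_OE 3 shared 1.84% of its nucleotides with GFP_OE 3, 1.77% with RRM_OE 4 and 1.23% with GFP_OE 4. RRM_OE 4 shared 1.69% with GFP_OE 4, 1.70% with RRM_OE 3 and 1.64% with GFP_OE 3. The largest shares were with endo_OE 5, at 1.98% for RRM_OE 3 and 2.31% for RRM_OE 4. Sharing was sharpest at the same nucleotide: for RRM_OE 3 with GFP_OE 3 it was 5.00 times the mean at 41 to 50 nt away, and for RRM_OE 4 with GFP_OE 4 it was 3.22 times. The ratio was 4.58 between the RRM_OE replicates and 4.14 between the GFP_OE replicates. For RRM_OE 4 with GFP_OE 4, 1.66% of nucleotides had a GFP_OE event 1 nt upstream, close to the 1.69% with one at the same nucleotide.

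**Figure D5:**
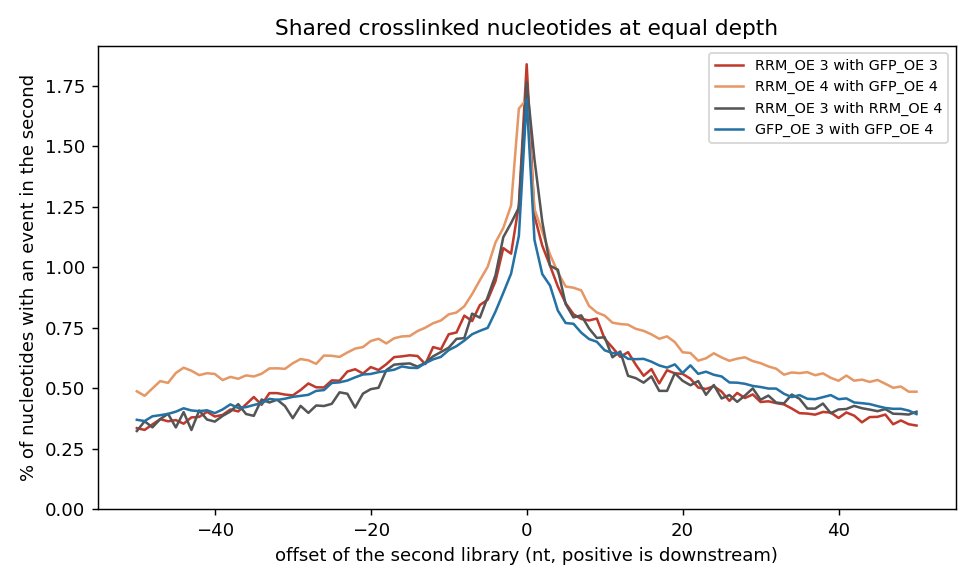
Percent of the nucleotides of the first library with an event of the second at each offset (nt), with all libraries thinned to 17763 events, for same-numbered RRM_OE and GFP_OE libraries and for the replicates of each product. All 4 curves peak at an offset of 0, between 1.69% and 1.84%, and the curve of RRM_OE 4 with GFP_OE 4 is the highest at 41 to 50 nt.

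Events were stacked on fewer nucleotides in RRM_OE than in GFP_OE at the same depth. Thinned to 17763 events, 15% of events in RRM_OE 3 and 8.33% in RRM_OE 4 lay at nucleotides with 2 or more, against 5.63% in GFP_OE 3 and 3.52% in GFP_OE 4. Without the ribosomal RNA stretch and the Srsf7 segment these values were 12.7% and 6.12%, against 3.87% and 2.04%. At this thinned depth the groups did not overlap. The values for endo_OE 4, endo_OE 5 and endo_WT were 12.1%, 7.49% and 3.64%, and over the 7 libraries the order of stacking was the reverse of the order of depth. The part of depth in this difference was not tested. Breadth differed less: 13734 windows had an event in RRM_OE 3, against 14198 in GFP_OE 3 at that depth, and 28130 in RRM_OE 4 against 29027.

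The authors' peak lists give nucleotides crosslinked in the anti-GFP libraries, made with another antibody. The median score was 1 in each of the WT, mutZn and D27aa lists. RRM_OE had 16.7% and 17.6% of its events at peak nucleotides of the WT list, and GFP_OE had 18.9% and 18.0%. At peaks of the zinc-knuckle variant mutZn, RRM_OE had 13.3% and 14.9%, and GFP_OE had 15.8% and 16.2%. Both RRM_OE libraries were lower for these lists, at the smallest p the test allows (exact permutation, two-sided, 0.333 each). Over the 7 shares tested in this way, the Srsf7 segment and mitochondrial RNA included, the lowest adjusted p was 0.778. With each nucleotide counted once, which takes more events from the deeper GFP_OE libraries, the direction was not kept. The ratios were 1.02 and 1.22 for WT peaks and 0.982 and 1.16 for mutZn peaks. At peaks of D27aa the direction differed between the numbers, with 6.41% and 7.43% in RRM_OE and 7.67% and 6.79% in GFP_OE. The libraries without UV and without antibody had 15.8% and 16.9% at WT peaks and 13.9% and 17.3% at mutZn peaks. At D27aa peaks they had 5.53% and 9.32%. endo_OE had 21.8% in both libraries at WT peaks, 18.6% and 19.2% at mutZn peaks, and 9.94% and 10.3% at D27aa peaks. The part of background in these shares was not tested.

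The zinc knuckle is one of the parts that an RRM-only product lacks, so peaks of mutZn far from any WT peak were compared as well. At mutZn peaks more than 30 nt from a WT peak, RRM_OE had 0.951% and 1.0% of its events, and GFP_OE had 1.19% and 1.5%. The ratios were 0.800 for number 3 (0.678 to 0.938) and 0.669 for number 4 (0.606 to 0.738), with no overlap between the groups (exact permutation, two-sided p = 0.333, the smallest possible). The libraries without UV and without antibody had 0.95% and 0.844% at these peaks. endo_OE had 1.02% and 1.33% and endo_WT 1.4%, so 1 endogenous library was as low as RRM_OE. At WT peaks more than 30 nt from a mutZn peak, RRM_OE had 2.54% and 2.17% and GFP_OE had 2.47% and 2.05%. The ratios there were 1.03 (0.933 to 1.14) and 1.06 (0.988 to 1.13), and both intervals include 1.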

How the data were processed

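The deposited files give a signed score for each crosslinked nucleotide of mm9, per the file headers the number of cDNAs, with the sign as strand. The authors' peak lists hold the same kind of score, on pooled replicates of WT, mutZn and D27aa. CASAVA 1.4 is named in the submitters' processing notes, and no aligner, handling of reads that map several times or step against PCR duplicates is given in the sources used here. Absolute scores were summed in strand-specific windows of 5000 nt and, added after the data were seen, bins of 20 nt. Windows reaching the CPM of 10 events at the median library in 2 libraries, and 15 events in all, were tested with limma-voom (limma 3.58.1, R 4.3.3; tested on simulated data), fitted on 7 UV anti-SRSF7 libraries with group as the term and a trimmed mean scaling. The adjusted p threshold was 0.05. The deposited values are signed scores, and no count model was fitted to windows or bins. The exact intervals and the thinning took the absolute score as a number of events. Same-numbered libraries share a run per the file headers, and their deviations from the group means correlated at 0.46 over 442 windows; that pairing is the block. Named windows were the 5 largest differences in each direction that had the same sign in both numbers, called ones (at most 10), and the 8 strongest of each product; other bins were named after their values were seen. Members and lists were chosen with earlier results of these data known. Header replicate numbers differ from the titles for GFP_OE 3, and titles were used.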

Additional observations from a re-analysis of the deposited data

How the results depend on the processing

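The number of called windows (0) became 8615 without a filter on low values, where voom's added 0.5 lifts empty windows of shallow libraries (median log2 fold change 1.56), and 1 in 4 fits (windows of 20000 nt, the 4 libraries alone, positions taken once, the run as a block). In each of those 4 fits the call lay at the same place on chromosome 9. It stayed 0 with library totals, 1000 nt windows, limma-trend, thinned GFP_OE, the replicate block and without any 1 of the 4 libraries (0 to 0). The number of called bins (2) became 13942 without the filter, 23 with each position counted once (a 20 nt bin saturates in deep libraries), 1 with bins of 100 nt or shifted by 10 nt, 0 with only the 4 libraries, 9 with the replicate block and 8 with the run as a block, and 0 to 2 without 1 library. Of the named bins, 80604401 on chromosome 17 minus turned to a call at 1.92 on the log2 scale with each position counted once. Uncalled, the 7SK window turned to 0.68 and its bins 78023161 and 78023141 to 1.09 and 1.4. As mean log2 ratios of RRM_OE to GFP_OE, counting each position once moved the Srsf7 segment from 0.08 to 0.87, mitochondrial RNA from -0.88 to -0.11, and peaks of D27aa from -0.06 to 0.87, of WT from -0.11 to 0.15 and of mutZn from -0.19 to 0.10; the deeper GFP_OE libraries lose more events this way. WT peaks far from mutZn moved from 0.06 to 0.13 within 5 nt. The shared nucleotides (2.12%) were 6.62% with GFP_OE not thinned and 4.38% within 2 nt. Of 462 refits of the named windows and bins, 425 kept the sign. Part of these windows and bins were picked for a large change of the same sign in both numbers. The refits reuse the same libraries, so the kept signs are no separate result. The depth of RRM_OE 3 limits what a difference downward can show.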
